A study of Mus musculus with 11 samples.

Results

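Gene expression was compared across all genes between mouse medulloblastomas started by MYC and Gfi1 in S100b-positive cells and medulloblastomas started by MYC and Otx2 without restriction to a cell type. The 2 groups were taken from the sample titles and hold 6 of the 11 libraries of the series, 3 in each group. Tumours of one group carried MYC-Gfi1 with conditional expression in S100b-positive cells, and are called S100b-cell tumours here. The other group carried MYC-Otx2 with expression given as constitutive, and is called MYC/Otx2 tumours. Both were in mice of strain CD1, and both share MYC, so the groups differ in the partner gene and in the cells meant to express it, and these cannot be told apart. The labels give neither the age or number of animals, nor the promoter or delivery behind the expression in S100b-positive cells. The remaining libraries were 2 of constitutive MYC/Gfi1 tumours and 3 of tumours with MYC, Gfi1 and N1ICD in Math1-positive cells, and these entered the fit to estimate the spread between libraries.

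Medulloblastoma is a tumour of the cerebellum, and its Group 3 form is known for high MYC and for photoreceptor genes that the cerebellum normally keeps silent. Otx2 is a homeodomain transcription factor that, with its relative Crx, switches on photoreceptor and bipolar cell genes in the retina. Gfi1 is a zinc-finger repressor that recruits histone demethylases and deacetylases to chromatin. S100b encodes a calcium-binding protein of astrocytes and other glia, and S100b-positive cells of the cerebellum include astroglia.

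Each value is a count of 3′ end reads per gene, given as CPM, the count relative to its library total after scaling the totals by the trimmed mean of M-values (TMM). Libraries held 12767656 to 15186763 counts in S100b-cell tumours and 6967686 to 8334356 in MYC/Otx2 tumours. Between 19330 and 19834 genes had at least 1 count in S100b-cell libraries, against 14987 to 15935 in MYC/Otx2 libraries. Genes of the mitochondrial genome took 14.7 to 18.5% of the counts in S100b-cell libraries and 5.18 to 5.74% in MYC/Otx2 libraries. Depth and mitochondrial share therefore moved with the groups, and the column names of the groups follow different styles. Spearman correlations over genes were 0.912 to 0.946 within S100b-cell tumours, 0.95 to 0.952 within MYC/Otx2 tumours and 0.807 to 0.834 between the groups. Replicate 1 stood furthest from the other S100b-cell libraries. Ddx3y of the Y chromosome was at 0, 0.0692 and 0 CPM in S100b-cell libraries, against 0.141, 67.3 and 0 CPM in MYC/Otx2 libraries, so only MYC/Otx2 replicate 2 stood well above 0. No label says that the libraries of a group came from separate animals, and p-values measure only the spread between these libraries, which may be technical.

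The comparison of 15228 genes with enough counts called 2727 of them (17.9%) at an adjusted p under 0.05, by edgeR's quasi-likelihood test with Benjamini-Hochberg adjustment. Of these, 1526 (10% of the genes tested) were higher in S100b-cell tumours and 1201 (7.89%) were lower. In 7669 genes (50.4%) every library of one group lay above every library of the other. The median log2 fold change over all genes tested was 0.17. Fewer genes were called when 1 library was left out: 1750 without S100b-cell replicate 1, 1330 without replicate 2 and 1197 without replicate 3, and 1302, 1285 and 1192 without MYC/Otx2 replicates 1, 2 and 3. Each of these keeps 1 group at 2 libraries. With all libraries thinned to the shallowest of the 6, 2700 genes were called, and with the mitochondrial genes left out 2707 were. A call is said below to hold when it stayed past the threshold in all of these 6 repeats.

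**Figure D1:**
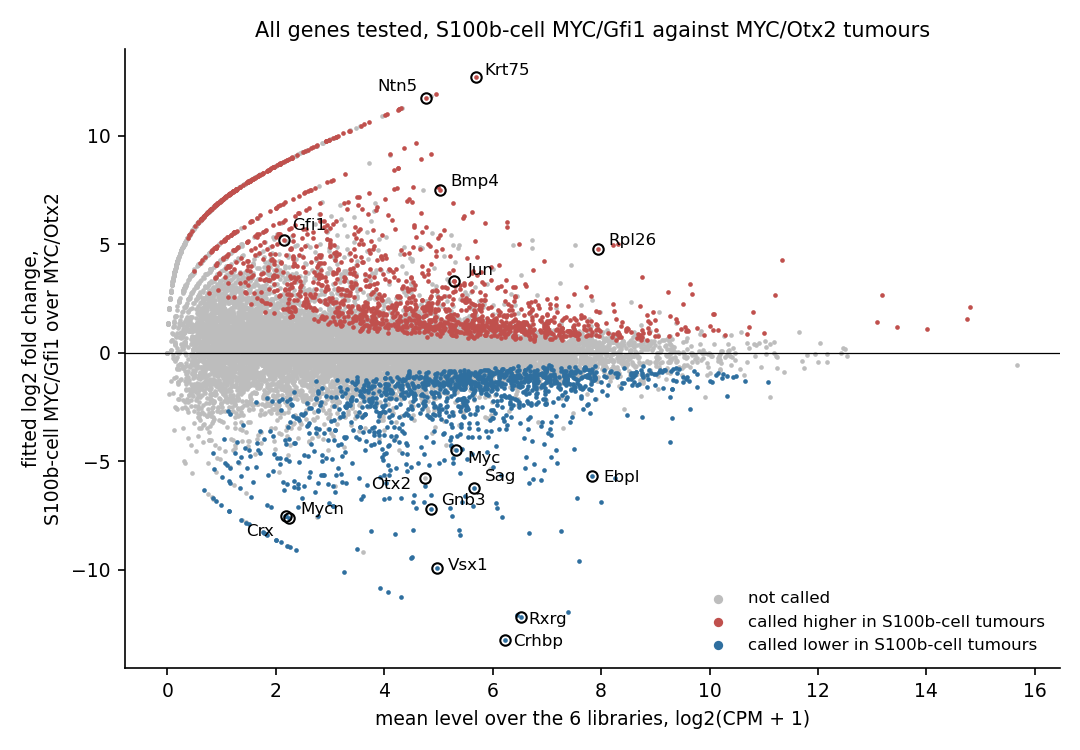
Each point is 1 of the 15228 genes tested, with its mean level over the 6 libraries as log2(CPM + 1) on the horizontal axis and its fitted log2 fold change, S100b-cell over MYC/Otx2 tumours, on the vertical axis. The 1526 genes called higher are red and the 1201 called lower are blue, with genes named in the text circled. The curved outer edges are genes with 0 counts in all libraries of a group, whose fitted fold change depends on the prior count.

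The genes named in the labels came first. Myc was lower in S100b-cell tumours, Gfi1 was higher, Otx2 had no count in 2 of the 3 S100b-cell libraries, and S100b itself did not separate the groups. The counts are 3′ end reads on the mouse genome, and the labels do not give the species of the MYC sequence or the 3′ end of any introduced gene, so an introduced copy with another 3′ end would not be counted.

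Myc (chr15:61985391-61990374, mm10) was at 4.21, 2.01 and 3.75 CPM in S100b-cell tumours, against 128, 31.5 and 66.4 CPM in MYC/Otx2 tumours. Every S100b-cell library lay below every MYC/Otx2 library. Its log2 fold change was -4.49 ± 0.67 (SE, n = 3 libraries a group, adjusted p = 0.00313 by edgeR), and the call held, with adjusted p up to 0.0194. Mycn, the MYC relative of neuronal progenitors, had 1 count over the 3 S100b-cell libraries, against 3.67, 6.35 and 12.5 CPM in MYC/Otx2 tumours. The ratio was 332-fold lower in S100b-cell tumours, with a 95% counting interval of 58.9 to 13203 (adjusted p = 0.00607 by edgeR). Max, the DNA-binding partner of MYC, was at 154, 147 and 144 CPM in S100b-cell tumours, against 311, 314 and 335 CPM in MYC/Otx2 tumours. Its log2 fold change was -1.11 ± 0.24 (adjusted p = 0.0137 by edgeR), and reached an adjusted p of 0.0531 without S100b-cell replicate 3. Of the 11 genes of the MYC network tested, 2 rose and 3 fell, against 10% and 7.89% of all genes tested. Those that rose were Mga, which dimerises with MAX, and Mlx, a MAX-like protein. Mga was at 228, 191 and 201 CPM in S100b-cell tumours and 118, 83.0 and 97.4 CPM in MYC/Otx2 tumours. The call of Mga was lost without any library but MYC/Otx2 replicate 1 (adjusted p up to 0.0831), and that of Mlx without any 1 of the 6 (up to 0.153).

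Gfi1 (chr5:107716657-107726036) was at 13.9, 2.07 and 3.99 CPM in S100b-cell tumours, against 0.283, 0 and 0.231 CPM in MYC/Otx2 tumours. All S100b-cell libraries lay above the other group, with replicate 1 the highest. The log2 fold change was 5.18 ± 1.16 (adjusted p = 0.0158 by edgeR). The call was lost without MYC/Otx2 replicate 2 or 3, with adjusted p up to 0.0552. Of 12 tested genes for Gfi1 and the co-repressors it works with, 2 rose (Gfi1 and Hmg20b) and 1 fell (Phf21a). Over all genes tested, 10% were called higher and 7.89% lower. Hmg20b, a subunit of the CoREST demethylase complex, was at 39.5, 37.7 and 36.1 CPM in S100b-cell tumours and 21.0, 14.0 and 16.9 CPM in MYC/Otx2 tumours, and its call held. Phf21a, a histone H3 reader of the same complex, was at 39.4, 33.6 and 41.3 CPM in S100b-cell tumours and 87.7, 113 and 106 CPM in MYC/Otx2 tumours. The call of Phf21a was lost without S100b-cell replicate 1, 2 or 3 or MYC/Otx2 replicate 2 or 3, with adjusted p up to 0.0771.

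Otx2 (chr14:48657677-48673819) was at 0, 2.77 and 0 CPM in S100b-cell tumours, against 13.7, 42.5 and 97.0 CPM in MYC/Otx2 tumours. The groups did not overlap. The fitted log2 fold change of -5.76 ± 1.91 did not pass (adjusted p = 0.0615 by edgeR), and passed without S100b-cell replicate 2, the only library of that group with any count, at an adjusted p of 0.0385. S100b (chr10:76253853-76261159) was at 1.23, 27.7 and 63.8 CPM in S100b-cell tumours and 27.3, 73.6 and 4.62 CPM in MYC/Otx2 tumours. Its levels overlapped widely and differed by -0.19 ± 1.30 on the log2 scale (adjusted p = 0.935 by edgeR). Notch1 had 10 counts over all S100b-cell libraries and Atoh1, the mouse Math1 gene, had 6, and both had none in MYC/Otx2 tumours.

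**Figure D2:**
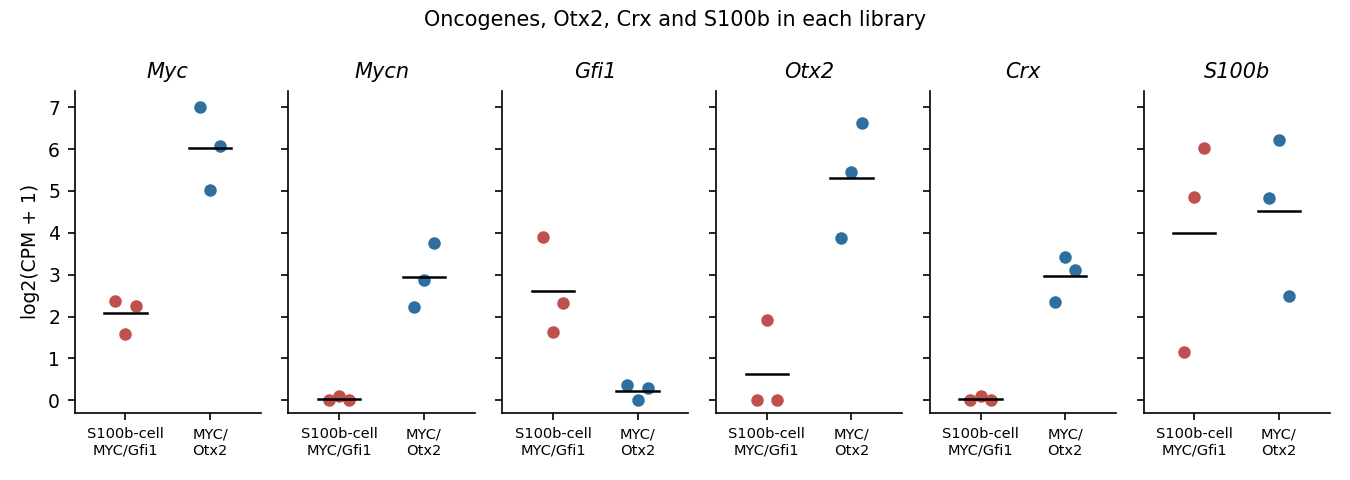
Level of 6 genes as log2(CPM + 1) in each library, with S100b-cell tumours in red on the left of each panel and MYC/Otx2 tumours in blue on the right, and a bar at the mean of the 3 libraries. Myc, Mycn, Otx2 and Crx lie lower in every S100b-cell library than in any MYC/Otx2 library, Gfi1 lies higher, and S100b overlaps.

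Photoreceptor genes were the group with the most calls among the retinal lists. Of 44 listed genes of phototransduction and photoreceptor structure, 24 had enough counts to be tested, and 18 of those fell in S100b-cell tumours while none rose, against 7.89% of all genes called lower. Their median log2 fold change was -3.97, beside 0.17 over all genes tested. The number called lower was 13, 9 and 10 without S100b-cell replicates 1, 2 and 3, and 13, 13 and 11 without MYC/Otx2 replicates 1, 2 and 3. The call held for 9 of the 18. Of the 20 members not tested, 5 had no count in any of the 6 libraries. Members that had enough counts only through the MYC/Otx2 libraries had to differ, so these counts describe the list and support nothing further. The same holds in every other list for members that had enough counts only through 1 of the groups. In bulk tumour RNA, fewer cells of a type and less RNA per cell cannot be told apart.

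Among the factors that drive these genes, Crx (chr7:15865947-15879968) had 1 count over the S100b-cell libraries, against 4.10, 9.72 and 7.63 CPM in MYC/Otx2 tumours. Its level was 311-fold lower in S100b-cell tumours, with a 95% counting interval of 55.1 to 12351 (adjusted p = 0.00507 by edgeR), and the call held. Rxrg, the retinoid receptor of cones, was at 0, 0 and 0.0782 CPM in S100b-cell tumours, against 217, 157 and 169 CPM in MYC/Otx2 tumours. That is 1 count against 4259, a ratio of 7655 with a counting interval of 1373 to 302410 (adjusted p = 0.00401 by edgeR). Lhx4, a LIM homeodomain factor of bipolar cells and cones, was at 0.647, 0.692 and 0.704 CPM in S100b-cell tumours and 3.53, 19.7 and 26.7 CPM in MYC/Otx2 tumours. Of 18 retinal transcription factors tested, 7 fell and none rose, against 7.89% of all genes called lower. Their median log2 fold change was -3.73. The calls of Crx, Rxrg, Vsx1 and Lhx4 held. The call of Neurod4, a helix-loop-helix factor of bipolar and amacrine cells, was lost without any library but MYC/Otx2 replicate 1, and that of Rax, a homeodomain factor of the early eye, with an adjusted p of 0.0496, was lost without any 1 of the 6. The list had 4 falls without S100b-cell replicate 3 or MYC/Otx2 replicate 2 or 3. Pax6, Isl1 and Neurod1 of the same list did not pass and overlapped between the groups, each with its highest S100b-cell value in replicate 2. Neurod1 was at 3.43, 123 and 9.31 CPM in S100b-cell tumours, against 34.9, 87.7 and 68.5 CPM in MYC/Otx2 tumours.

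The promoters of the genes that fell were read for the letters TAATCC, the core that Crx and Otx2 are known to bind, on both strands. Sequences are from RefSeq on build GRCm38.p6, from 250 bases before to 50 bases after the start, printed 5′ to 3′ on the gene's strand in lower case with the motif in capitals. In each one shown the motif lies on the opposite strand and so reads GGATTA. Crx, Sag and Gnat2 are shown whole because they stand for the regulator, the arrestin and the cone transducin of the values given here.

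Crx, chr7:15879906-15880205, minus strand: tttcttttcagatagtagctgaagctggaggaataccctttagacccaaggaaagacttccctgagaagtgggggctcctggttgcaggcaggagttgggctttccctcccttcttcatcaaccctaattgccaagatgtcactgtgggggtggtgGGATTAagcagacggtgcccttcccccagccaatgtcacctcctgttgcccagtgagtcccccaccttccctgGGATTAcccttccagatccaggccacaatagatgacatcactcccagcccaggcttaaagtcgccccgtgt
Sag, chr1:87803430-87803729, plus strand: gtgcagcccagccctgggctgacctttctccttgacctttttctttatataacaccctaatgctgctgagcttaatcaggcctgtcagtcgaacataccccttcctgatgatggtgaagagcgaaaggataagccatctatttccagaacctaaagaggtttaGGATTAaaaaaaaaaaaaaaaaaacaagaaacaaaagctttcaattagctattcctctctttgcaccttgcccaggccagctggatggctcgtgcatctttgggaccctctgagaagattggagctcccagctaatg
Gnat2, chr3:108092816-108093115, plus strand: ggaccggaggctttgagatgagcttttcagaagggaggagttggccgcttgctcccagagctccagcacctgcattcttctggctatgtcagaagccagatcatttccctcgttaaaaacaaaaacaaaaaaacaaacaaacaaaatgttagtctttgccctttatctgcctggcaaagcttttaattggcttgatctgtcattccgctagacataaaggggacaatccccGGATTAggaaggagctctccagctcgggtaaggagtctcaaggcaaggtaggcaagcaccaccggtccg

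Shorter windows of 50 bases are shown for 4 further members that fell, so that the flanks of the motif can be compared.

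Rpgrip1, chr14:52110853-52110902, plus strand: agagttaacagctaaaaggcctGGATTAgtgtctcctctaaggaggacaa
Abca4, chr3:122044380-122044429, plus strand: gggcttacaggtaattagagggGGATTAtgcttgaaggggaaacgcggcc
Guca1a, chr17:47400636-47400685, minus strand: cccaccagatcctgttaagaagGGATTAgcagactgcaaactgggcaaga
Rbp3, chr14:33953912-33953961, plus strand: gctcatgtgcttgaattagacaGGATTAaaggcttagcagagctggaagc

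The motif began 94 and 21 bases before the start of Crx, 87 before that of Sag and 19 before that of Gnat2. It was present in 7.06% of the 32851 promoters in the table, and in 8.14% of the 27025 genes these belong to. Of the 18 photoreceptor genes that fell, 13 had a promoter in the table and 8 of these (61.5%) held the motif. Of the other listed photoreceptor genes, 19 had a promoter and 7 (36.8%) held it. In the retinal transcription factor list, 1 of 5 genes that fell (20%) held it, against 3 of 14 others (21.4%). In the bipolar list, 0 of 4 that fell held it, against 4 of 11 others (36.4%). Among all genes called lower, 59 of 886 (6.66%) held it, against 73 of 1003 (7.28%) of those called higher. A match is a description of the letters in these windows and not a bound site. The promoters of Rxrg, Vsx1, Lhx4, Neurod4 and Grm6 held none in this window.

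Phototransduction genes, several of them of cones, were among those that fell. Gnb3, the cone transducin beta subunit that bipolar cells also use, was at 0.129, 0.346 and 0.626 CPM in S100b-cell tumours, against 34.3, 56.7 and 75.8 CPM in MYC/Otx2 tumours. Every S100b-cell library was near 0, and the log2 fold change was -7.21 ± 0.94 (adjusted p = 0.00195 by edgeR). Sag, the rod arrestin that ends the light response, was at 1.49, 1.38 and 1.02 CPM in S100b-cell tumours, against 102, 30.0 and 160 CPM in MYC/Otx2 tumours, a log2 fold change of -6.21 ± 0.68 (adjusted p = 0.00103 by edgeR). Gngt2, the cone transducin gamma subunit, was at 10.4, 13.2 and 9.23 CPM in S100b-cell tumours and 75.9, 66.5 and 71.2 CPM in MYC/Otx2 tumours. Its S100b-cell levels were well above 0, unlike those of Gnb3 and Sag. Pde6h, the inhibitory subunit of the cone phosphodiesterase, was at 0.194, 0.0692 and 0 CPM in S100b-cell tumours and 12.6, 10.2 and 80.5 CPM in MYC/Otx2 tumours. Gnat2, the cone transducin alpha subunit, was at 0.582, 0.692 and 1.41 CPM in S100b-cell tumours and 9.75, 9.47 and 16.4 CPM in MYC/Otx2 tumours. In none of these 5 genes did the groups overlap, and each call held. Pde6c, the catalytic subunit of the cone phosphodiesterase, had no count in any S100b-cell library, against 6.64, 2.86 and 6.01 CPM in MYC/Otx2 tumours. It was at least 73.1-fold lower (adjusted p = 0.0145 by edgeR), and the call held.

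Further members, of rods, of both photoreceptor types or of the outer segment, fell in part. Pde6g, the inhibitory subunit of the rod phosphodiesterase, was at 1.29, 1.31 and 0.626 CPM in S100b-cell tumours and 19.4, 12.8 and 16.1 CPM in MYC/Otx2 tumours (log2 fold change -3.88 ± 0.78, adjusted p = 0.0106 by edgeR). Rpgrip1, of the connecting cilium, was at 1.36, 0.968 and 0.547 CPM in S100b-cell tumours and 5.79, 12.3 and 9.59 CPM in MYC/Otx2 tumours. Abca4, the retinoid flippase of the outer segment, was at 0.0647, 0.0692 and 0.156 CPM in S100b-cell tumours and 8.33, 12.6 and 3.12 CPM in MYC/Otx2 tumours. The groups lay apart in all 3, and the calls held. Unc119, a carrier of lipid-modified transducin, was at 7.57, 4.98 and 6.10 CPM in S100b-cell tumours and 41.7, 23.0 and 47.5 CPM in MYC/Otx2 tumours, and lost its call without S100b-cell replicate 2 or 3 (adjusted p up to 0.053). Samd7, a Polycomb-associated repressor of photoreceptors, had no count in S100b-cell tumours and 155 in MYC/Otx2 tumours, at least 92.9-fold lower, and lost its call without the same libraries (up to 0.0577). It had too few counts to be tested without MYC/Otx2 replicate 1 or 3. Guca1a, the activator of the photoreceptor guanylate cyclase, lost it without S100b-cell replicate 2 (0.0551), and Rbp3, the retinoid carrier between cells, without S100b-cell replicate 2 or 3 or MYC/Otx2 replicate 3 (up to 0.063). The calls of Grk1, the opsin kinase, Slc24a1, a cation exchanger of rods, and Gnb1 were each lost without any 1 of the 6 libraries, with adjusted p up to 0.136, and that of Impg2 without any library but MYC/Otx2 replicate 1 (up to 0.0835). Gucy2e, a photoreceptor guanylate cyclase, was at 0.712, 0.346 and 0.626 CPM in S100b-cell tumours and 10.3, 6.6 and 12.0 CPM in MYC/Otx2 tumours and did not pass (adjusted p = 0.0638 by edgeR). Opn1sw, the short-wave cone opsin, was at 2.14, 1.73 and 2.58 CPM in S100b-cell tumours and 2.4, 1.25 and 1.27 CPM in MYC/Otx2 tumours, so its levels overlapped (adjusted p = 0.711 by edgeR).

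Some rod genes, picked out after their values were seen, were at or near 0 in both groups, while the rod genes Sag, Pde6g and Slc24a1 were called lower in S100b-cell tumours, the last with a call that did not hold. Gnat1, the rod transducin alpha subunit, had no count in any of the 6 libraries, and Nrl and Nr2e3, which set rod identity, stayed at or below 1.39 CPM. Rcvrn, a photoreceptor calcium sensor, had no count either, and neither did the cone arrestin gene Arr3. Among the markers fixed for photoreceptors, Crx and Sag were thus at several CPM or more in MYC/Otx2 tumours while Nrl, Rcvrn and Gnat1 were at or near 0. Among members not restricted to photoreceptors, Gnb1, a G-protein beta subunit of many tissues, took 114 to 121 CPM of the summed level of the list in S100b-cell tumours and 197 to 228 CPM of it in MYC/Otx2 tumours. The sum was 145 to 152 CPM in S100b-cell tumours and 487 to 793 CPM in MYC/Otx2 tumours.

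**Figure D3:**
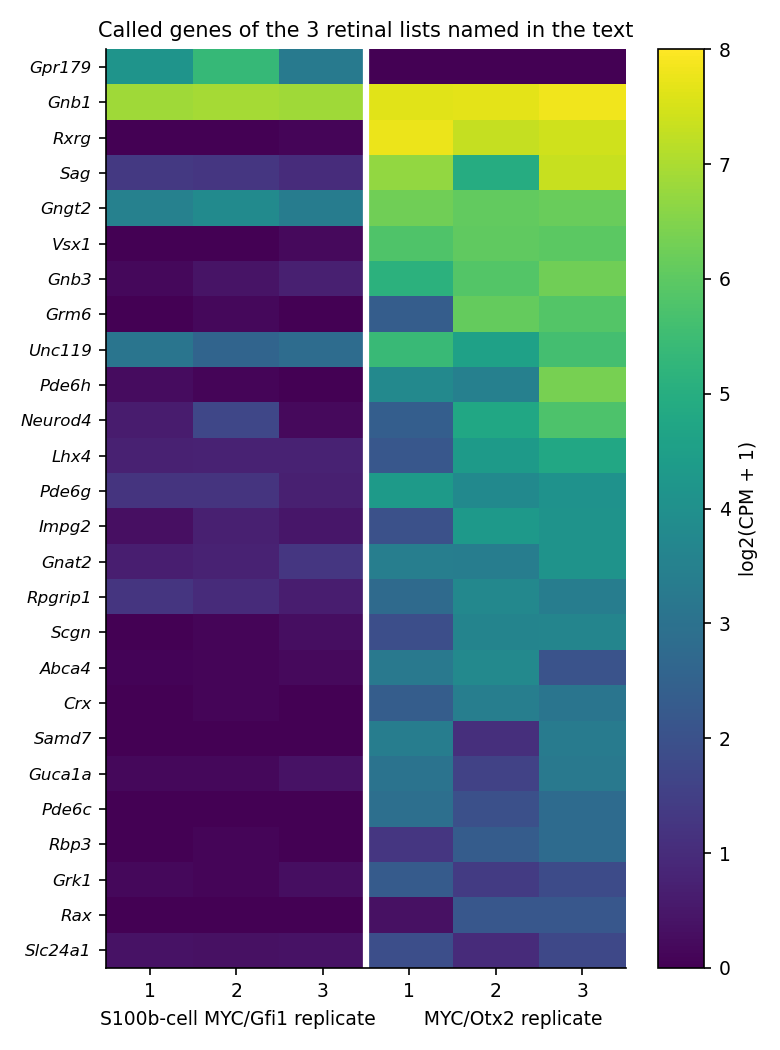
Levels of called members of the photoreceptor, retinal transcription factor and bipolar cell lists that the text names as log2(CPM + 1), 1 row a gene and 1 column a library, with the 3 S100b-cell libraries left of the 3 MYC/Otx2 libraries. Gpr179 is the only gene of the map that is brighter on the left. Gnb1, Gngt2 and Unc119 are the rows with a level above 2 in every S100b-cell library among those that fell.

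Bipolar cell genes fell in part. Of 11 tested, 5 fell and 1 rose, against 7.89% of all genes called lower and 10% called higher. The median log2 fold change was -4.58. Gnb3, Vsx1 and Lhx4, which fell, also stand in the other retinal lists. Grm6, the glutamate receptor of ON bipolar cells, was at 0, 0.138 and 0 CPM in S100b-cell tumours and 4.10, 68.8 and 56.9 CPM in MYC/Otx2 tumours. Vsx1, a homeodomain factor of bipolar cells, was at 0, 0 and 0.156 CPM in S100b-cell tumours and 55.0, 64.5 and 61.7 CPM in MYC/Otx2 tumours. With 2 counts in S100b-cell tumours, Vsx1 was 1295-fold lower, with a counting interval of 358 to 10703 (adjusted p = 0.00157 by edgeR). Scgn, a calcium-binding protein of cone bipolar cells, was at 0, 0.0692 and 0.235 CPM in S100b-cell tumours and 2.83, 11.3 and 11.4 CPM in MYC/Otx2 tumours, and lost its call without S100b-cell replicate 2 or MYC/Otx2 replicate 2 or 3 (adjusted p up to 0.0641). Gpr179 went the other way. It is an orphan receptor of the same ON bipolar synapse, and was at 16.8, 39.6 and 8.68 CPM in S100b-cell tumours with no count in MYC/Otx2 tumours, so it was at least 175-fold higher when the group without counts is set at 3 counts in all (adjusted p = 0.0111 by edgeR, and the call held). Of the other fixed bipolar markers, Trpm1 and Cabp5 were below 0.57 CPM in each library.

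Of 15 tested markers of human Group 3 and Group 4 medulloblastoma, 6 fell and none rose, against 7.89% of all genes called lower. The median was -1.84. All of the 6 but Npr3 also stand in other lists. Npr3, the natriuretic peptide clearance receptor, was at 0.518, 0.622 and 1.41 CPM in S100b-cell tumours and 24.6, 29.5 and 48.9 CPM in MYC/Otx2 tumours (log2 fold change -5.32 ± 0.91, adjusted p = 0.00567 by edgeR). Unc5d, a netrin receptor, was at 0.0647, 0.207 and 0.0782 CPM in S100b-cell tumours and 8.62, 4.61 and 10.6 CPM in MYC/Otx2 tumours, and both calls held. Gabra5, a GABA receptor subunit, had no count in S100b-cell tumours and 84 over the MYC/Otx2 libraries, so it was at least 50.3-fold lower, and its call was lost without S100b-cell replicate 2 or 3 or any 1 MYC/Otx2 library (adjusted p up to 0.0615).

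The largest falls and rises were taken among called genes at 10 CPM or more in the higher group and without overlap. Gene models named only by number were left out. Genes outside the retinal lists made up most of the 12 largest falls, all of which held. Crhbp, which binds corticotropin-releasing hormone, had no count in S100b-cell tumours and was at 62.0, 52.9 and 326 CPM in MYC/Otx2 tumours, at least 2207-fold lower. Helt, a basic helix-loop-helix factor of GABAergic neurons of the midbrain, had 1 count in S100b-cell tumours and was at 178, 154 and 185 CPM in MYC/Otx2 tumours. Rhox5, an X-linked homeobox gene of the reproductive tract, was at 0.194, 0 and 0 CPM in S100b-cell tumours and 729, 53.8 and 221 CPM in MYC/Otx2 tumours. In all 3 genes the groups stood far apart, and MYC/Otx2 libraries differed by several fold in Crhbp and Rhox5. Sohlh1, a germ cell factor, was at 0, 0 and 1.49 CPM in S100b-cell tumours and 361, 621 and 164 CPM in MYC/Otx2 tumours. The others were Aqp8, Tmem215, Dnaic1, Folh1, Kcne2, Rxrg, Vsx1 and Grm6. Of these, Aqp8, a water channel, was at least 554-fold lower in S100b-cell tumours and Tmem215 at least 465-fold lower.

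The 12 largest rises under the same conditions had no count in any MYC/Otx2 library, and varied more among the S100b-cell libraries. Krt75, a hair follicle keratin, was at 0.712, 41.1 and 263 CPM in S100b-cell tumours. In the same tumours Ntn5, a netrin family member, was at 48.3, 48.8 and 61.0 CPM, and Gpha2, a glycoprotein hormone subunit, at 80.3, 14.4 and 15.8 CPM. With the MYC/Otx2 libraries set at 3 counts in all these were at least 735-fold, 414-fold and 306-fold higher. Only 3 of the 12 calls held, those of Ntn5, Gpha2 and Gpr179. Replicate 1 was the lowest S100b-cell library in 9 of the 12. Dgkb, a diacylglycerol kinase of neurons, was at 126, 2.14 and 51.0 CPM in S100b-cell tumours and lost its call without any 1 MYC/Otx2 library (adjusted p up to 0.0568). Krt75 lost it without S100b-cell replicate 3 or any 1 MYC/Otx2 library (up to 0.0682), and so did Cldn4, a tight junction claudin (up to 0.0649). Fermt1, Myom2, Tmprss2, Hepacam2 and Anxa8 lost it without S100b-cell replicate 2 or 3 or any 1 MYC/Otx2 library (up to 0.091), and Pof1b without any 1 of the 6 (up to 0.112).

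The number of genes at 10 CPM or more in one group and no count in the other was unequal. There were 41 such genes at 10 CPM or more in S100b-cell tumours, of which 29 were called, and 5 such genes in MYC/Otx2 tumours, all called. The S100b-cell libraries were the deeper ones, so a low level is more readily seen as above 0 in them, and the part of depth in this count was not tested.

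Among called genes under the conditions of the largest falls, the 8 with the smallest p had tight values in both groups. Ebpl, of the emopamil-binding protein family of sterol enzymes, was at 8.67, 8.23 and 9.46 CPM in S100b-cell tumours, against 459, 533 and 350 CPM in MYC/Otx2 tumours, a log2 fold change of -5.67 ± 0.31 (adjusted p = 3.83e-05 by edgeR). Rpl26, a protein of the large ribosomal subunit, was at 369, 472 and 569 CPM in S100b-cell tumours, against 21.6, 15.6 and 14.7 CPM in MYC/Otx2 tumours (4.76 ± 0.28, adjusted p = 4.1e-05 by edgeR). Ribosomal protein genes have many near-identical processed copies, and the treatment of reads shared with them is not given, so that value is uncertain. Ifitm2, an interferon-induced membrane protein, was at 80.9, 70.6 and 107 CPM in S100b-cell tumours and 4.10, 5.11 and 3.47 CPM in MYC/Otx2 tumours. Cebpb, a leucine zipper factor of inflammation and differentiation, was at 87.2, 91.3 and 120 CPM in S100b-cell tumours and 11.4, 9.59 and 9.71 CPM in MYC/Otx2 tumours. The other 4 were lower in S100b-cell tumours: Abcd3, a peroxisomal transporter, Elk1, an ETS factor downstream of MAP kinase, Rcl1, of ribosomal RNA processing, and Ptgfrn, a membrane glycoprotein. Their log2 fold changes were -3.18, -2.80, -2.61 and -2.87. All 8 calls held.

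Of 18 tested genes of BMP and TGF-beta signalling, 7 rose, 11 did not pass and none fell, against 10% of all genes called higher, with a median of 1.37. BMPs are secreted ligands that act through SMAD proteins to induce the Id genes, which block neuronal helix-loop-helix factors. Bmp4, a ligand, was at 48.3, 46.1 and 94.5 CPM in S100b-cell tumours and 0.141, 0.249 and 0.578 CPM in MYC/Otx2 tumours, a log2 fold change of 7.51 ± 0.94 (adjusted p = 0.00169 by edgeR). Tgfb1, another ligand, was at 12.3, 18.5 and 16.1 CPM in S100b-cell tumours and 1.84, 1.87 and 0.462 CPM in MYC/Otx2 tumours. The calls of both held, and the groups lay well apart. Among targets, Id3 was at 242, 97.0 and 113 CPM in S100b-cell tumours and 12.6, 26.5 and 15.6 CPM in MYC/Otx2 tumours, and Id2 was at 199, 128 and 168 CPM in S100b-cell tumours and 40.5, 39.5 and 21.7 CPM in MYC/Otx2 tumours. Id2 lost its call without MYC/Otx2 replicate 3 (adjusted p = 0.0616) and Id3 without S100b-cell replicate 1 or MYC/Otx2 replicate 1 or 3 (up to 0.072). The list's count was 4, 6 and 5 without S100b-cell replicates 1, 2 and 3, and 3, 6 and 3 without MYC/Otx2 replicates 1, 2 and 3. Bmp7, another ligand, was at 20.9, 42.0 and 17.0 CPM in S100b-cell tumours and 102, 79.8 and 75.8 CPM in MYC/Otx2 tumours and did not pass (adjusted p = 0.0715 by edgeR).

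Of 18 tested immediate early genes, which cells switch on soon after a stimulus, 7 rose, 11 did not pass and none fell, against 10% of all genes called higher, with a median of 1.80, and 5 of the calls held. Jun was at 84.5, 37.4 and 85.1 CPM in S100b-cell tumours and 4.38, 7.85 and 8.90 CPM in MYC/Otx2 tumours (log2 fold change 3.29 ± 0.54, adjusted p = 0.00472 by edgeR). Jund was at 118, 164 and 235 CPM in S100b-cell tumours and 12.3, 23.4 and 22.2 CPM in MYC/Otx2 tumours. Atf3, a stress-induced partner of JUN, was at 11.6, 19.2 and 25.5 CPM in S100b-cell tumours and 1.41, 1.74 and 1.62 CPM in MYC/Otx2 tumours. These 3 showed no overlap.

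Arrest and p53 genes changed in the same direction for some members. Of 17 tested p53 pathway genes 4 rose, 13 did not pass and none fell, with a median of 0.48. Of 14 cyclin D and CDK inhibitor genes 4 rose and 1 fell, with a median of 0.67. Over all genes tested, 10% were called higher and 7.89% lower. Cdkn1a, the CDK inhibitor p21 and a p53 target, was at 189, 113 and 217 CPM in S100b-cell tumours and 9.75, 24.0 and 27.9 CPM in MYC/Otx2 tumours (3.07 ± 0.48, adjusted p = 0.00382 by edgeR). Trp53inp1, another p53 target, was at 98.1, 97.5 and 152 CPM in S100b-cell tumours and 5.79, 8.97 and 7.86 CPM in MYC/Otx2 tumours. Ccnd1, the cyclin D1 gene, which drives rather than blocks the cycle, was at 51.2, 20.9 and 34.7 CPM in S100b-cell tumours and 2.68, 6.85 and 8.67 CPM in MYC/Otx2 tumours, and these 3 calls held. Bbc3, the apoptosis gene Puma, was at 327, 260 and 303 CPM in S100b-cell tumours and 124, 81.5 and 92.2 CPM in MYC/Otx2 tumours, and was at an adjusted p of 0.0502 without MYC/Otx2 replicate 2. The p53 targets Mdm2 and Ccng1 overlapped between the groups and did not pass (adjusted p = 0.612 and 0.388 by edgeR). Mdm2 was at 163, 101 and 106 CPM in S100b-cell tumours and 108, 117 and 95.6 CPM in MYC/Otx2 tumours. The p53 list had 2 rises without MYC/Otx2 replicate 2. The cyclin and inhibitor list had 2 rises without S100b-cell replicate 1 or 3 or MYC/Otx2 replicate 3, and its fall, Cdkn2d, was lost without any 1 library.

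Some proliferation genes and MYC targets were called, beside 10% of all genes called higher and 7.89% called lower. The counts depended on the fit. Of 40 tested cell cycle genes 3 rose and 1 fell, with a median of -0.38. The fit of the 6 libraries alone called 13 lower and 5 higher, and DESeq2 6 lower and 3 higher. The list had no fall without S100b-cell replicate 2 or 3 or MYC/Otx2 replicate 1 or 2, and 2 without S100b-cell replicate 1. Hmgb2, a chromatin protein of dividing cells, was at 138, 151 and 147 CPM in S100b-cell tumours and 42.9, 42.8 and 45.6 CPM in MYC/Otx2 tumours, and Ccne2, cyclin E2, was at 56.3, 58.5 and 53 CPM in S100b-cell tumours and 23.6, 13.2 and 13.6 CPM in MYC/Otx2 tumours. Top2a, the mitotic topoisomerase, was at 1010, 676 and 552 CPM in S100b-cell tumours and 1080, 917 and 1020 CPM in MYC/Otx2 tumours and did not pass (adjusted p = 0.256 by edgeR). Of 54 tested MYC target genes 6 rose and 3 fell, near the shares of all genes, with a median of -0.08. The fit of the 6 libraries alone called 11 higher and 15 lower. Dkc1 and Nop58, of nucleolar RNA modification, rose, by 1.25 ± 0.20 and 1.5 ± 0.29 on the log2 scale, and Cad, of pyrimidine synthesis, and Mybbp1a, a nucleolar protein, fell by 1.29 and 1.01. These 4 calls held. The list's rises numbered 2 without MYC/Otx2 replicate 2 or 3 and 3 without S100b-cell replicate 1 or 3.

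Genes of RNA splicing and of chromatin repression fell in part. Of 20 tested splicing factors 7 fell and 1 rose, against 7.89% and 10% of all genes tested, with a median of -0.61. U2af2, which binds the 3′ splice site, was at 264, 208 and 202 CPM in S100b-cell tumours and 712, 519 and 574 CPM in MYC/Otx2 tumours (-1.42 ± 0.20, adjusted p = 0.00226 by edgeR), and its call and that of Sf3a1 held. The number of splicing factors that fell was 3 without S100b-cell replicate 2, 2 without replicate 3 and 4 without MYC/Otx2 replicate 1, and the rise was lost without any 1 library. Of 18 tested Polycomb genes 6 fell and 2 rose, against 7.89% and 10% of all genes tested. Cbx2, a reader of the Polycomb mark, was at 6.34, 5.19 and 3.91 CPM in S100b-cell tumours and 36.9, 35.5 and 33.7 CPM in MYC/Otx2 tumours, and was the only called member that held. Without any 1 library, 1 to 3 Polycomb genes fell and 0 or 1 rose. Dnmt1, the maintenance DNA methyltransferase, was at 82.4, 75.3 and 64.7 CPM in S100b-cell tumours and 279, 213 and 188 CPM in MYC/Otx2 tumours, and its call held.

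Hedgehog pathway genes showed 4 falls and no rise among 14 tested, against 7.89% of all genes called lower, with a median of -0.60. Sufu, the pathway's cytoplasmic inhibitor, was at 22.1, 21.2 and 21.6 CPM in S100b-cell tumours and 185, 140 and 208 CPM in MYC/Otx2 tumours (-3.04 ± 0.38, adjusted p = 0.00169 by edgeR). Mycn is also a target of this pathway. Gli3, a transcription factor of the pathway, and Sfrp1, a secreted WNT inhibitor, were the others. Gli3 lost its call without any library but MYC/Otx2 replicate 2 (adjusted p up to 0.0871), and Sfrp1 without any 1 of the 6 (up to 0.155). The list had 2 falls without any library but MYC/Otx2 replicate 2. Of 26 tested genes of serine, one-carbon and nucleotide metabolism, 5 fell and 2 rose, against 7.89% and 10% of all genes tested. Shmt1, a cytosolic serine hydroxymethyltransferase, was at 87.3, 32.6 and 52.5 CPM in S100b-cell tumours and 455, 272 and 314 CPM in MYC/Otx2 tumours. Ddit3, the stress factor CHOP, rose, with 17.3, 16.3 and 18.7 CPM in S100b-cell tumours and 0.424, 1.87 and 1.27 CPM in MYC/Otx2 tumours. Both calls held, and the list had 2 or 3 falls and 1 or 2 rises without any 1 library.

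**Figure D4:**
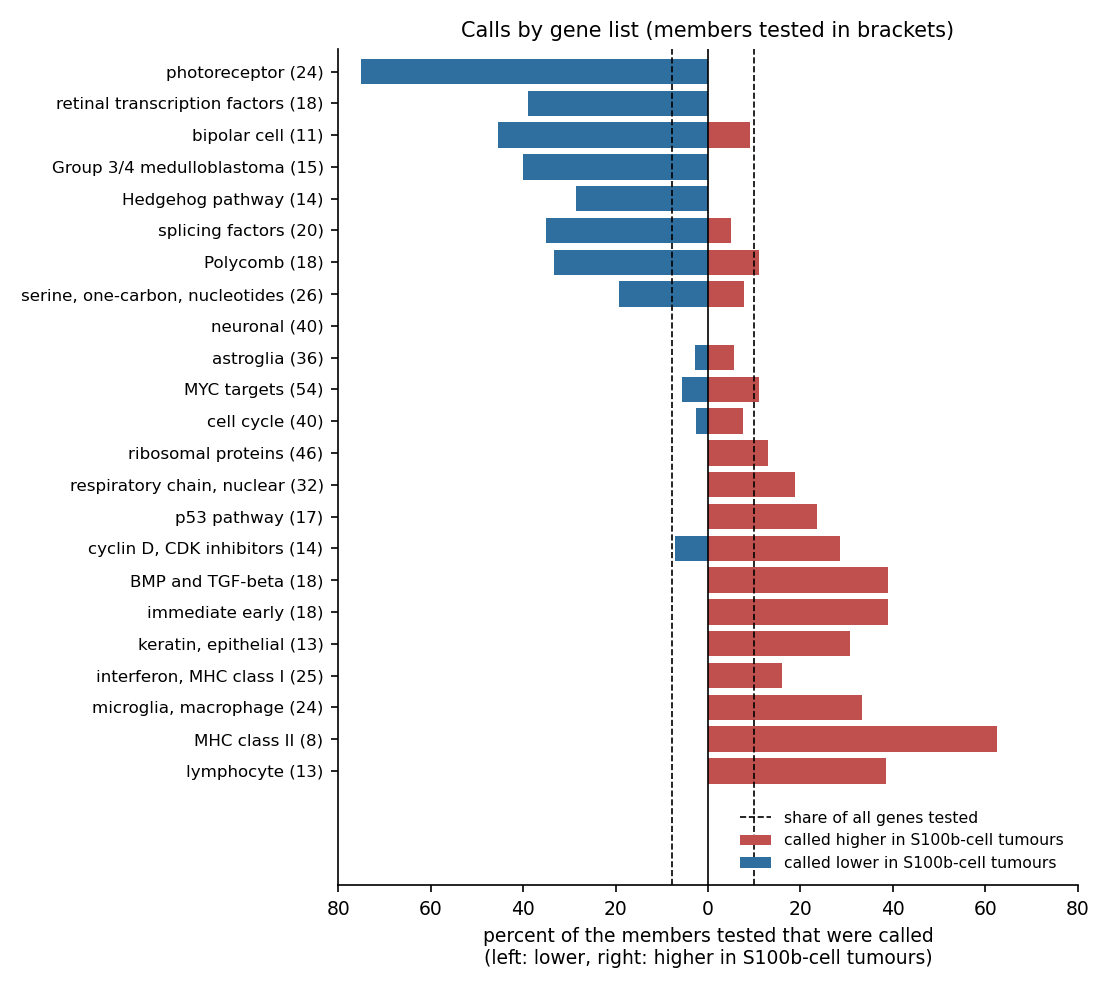
Share of the tested members of each list drawn that was called, with calls lower in S100b-cell tumours drawn to the left in blue and calls higher to the right in red, and the number of members tested in brackets. Dashed lines mark the share of all genes tested, 7.89% lower and 10% higher. Among the lists drawn, which leave out the mitochondrial genome, the photoreceptor list reaches furthest to the left, with 18 of 24, and the MHC class II list furthest to the right, with 5 of 8.

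Some immune genes rose in S100b-cell tumours, and no call of the MHC class II, microglia, lymphocyte or interferon lists held. Of 8 tested MHC class II genes, which present antigen on myeloid and B cells, 5 rose, against 10% of all genes called higher. The summed level was 731 to 856 CPM in S100b-cell tumours against 8.55 to 152 CPM in MYC/Otx2 tumours. The list's median was 4.70, or 3.56 with genes at no count in MYC/Otx2 tumours set at their bound. H2-Eb1 was at 83.4, 116 and 86.3 CPM in S100b-cell tumours and 1.98, 0.623 and 0.578 CPM in MYC/Otx2 tumours (log2 fold change 6.49 ± 1.39, adjusted p = 0.0138 by edgeR). Its call was lost without MYC/Otx2 replicate 2 or 3 (adjusted p up to 0.0582). H2-Ab1, another class II chain, was at 250, 290 and 273 CPM in S100b-cell tumours and 82.8, 4.98 and 1.04 CPM in MYC/Otx2 tumours and did not pass (adjusted p = 0.107 by edgeR), and passed without MYC/Otx2 replicate 1 (adjusted p = 0.0142). Replicate 1 was the highest MYC/Otx2 library in both. No class II gene was called without MYC/Otx2 replicate 2 or 3, and 2, 2, 3 and 4 were called without S100b-cell replicates 1, 2 and 3 and MYC/Otx2 replicate 1.

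Of 24 tested microglia and macrophage genes 8 rose and none fell, against 10% of all genes called higher, with a median of 1.42. The list's sum was 1710 to 1910 CPM in S100b-cell tumours and 435 to 1270 CPM in MYC/Otx2 tumours. Ctss, a lysosomal protease of myeloid cells, was at 547, 457 and 476 CPM in S100b-cell tumours and 192, 69.9 and 47.1 CPM in MYC/Otx2 tumours (2.26 ± 0.52, adjusted p = 0.0183 by edgeR), and lost its call without MYC/Otx2 replicate 2 or 3 (up to 0.0688). Ptprc, the pan-leukocyte marker CD45, was at 56.0, 36.2 and 28.2 CPM in S100b-cell tumours and 6.07, 3.11 and 3.47 CPM in MYC/Otx2 tumours. Ptprc lost its call without S100b-cell replicate 1 or any 1 MYC/Otx2 library (up to 0.0766). Of the 4 markers fixed for microglia, Aif1, Csf1r and C1qa did not overlap between the groups, nor did 50.4% of all genes tested. C1qa passed, with a call that was lost without any library but MYC/Otx2 replicate 1 (adjusted p up to 0.116). Cx3cr1 was at 32.3, 95.0 and 196 CPM in S100b-cell tumours and 78.5, 117 and 38.9 CPM in MYC/Otx2 tumours. Without 1 library the number of the 24 called was 2, 3 and 2 for S100b-cell replicates 1, 2 and 3 and 5, 2 and 0 for MYC/Otx2 replicates 1, 2 and 3.

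Of 13 tested lymphocyte genes 5 rose, at low levels, against 10% of all genes called higher. In at least 1 of the groups, 6 of the 13 had no count. Members with enough counts only through the S100b-cell libraries had to differ, so the count describes the list only. The median was 5.52, or 3.84 with genes at no count set at their bound, and the sum was 29.8 to 105 CPM in S100b-cell tumours and 2.74 to 9.04 CPM in MYC/Otx2 tumours. Cd3d, of the T cell receptor complex, was at 2.46, 3.18 and 2.27 CPM in S100b-cell tumours with no count in MYC/Otx2 tumours, at least 21.0-fold higher. It lost its call without any library but S100b-cell replicate 1 (up to 0.0551). Of the fixed markers, Cd3e and Cd79a had no count in MYC/Otx2 tumours and stayed at or below 1.04 CPM in S100b-cell tumours. Of 25 tested interferon and MHC class I genes 4 rose, against 10% of all genes called higher. All 25 had a positive fold change, and the median was 3.2. B2m, the MHC class I light chain, was at 1420, 985 and 761 CPM in S100b-cell tumours and 199, 131 and 123 CPM in MYC/Otx2 tumours, and lost its call without S100b-cell replicate 1 or any 1 MYC/Otx2 library (up to 0.0769). H2-K1, an MHC class I heavy chain, was at 371, 332 and 268 CPM in S100b-cell tumours and 209, 86.7 and 37.7 CPM in MYC/Otx2 tumours and did not pass (adjusted p = 0.304 by edgeR). The interferon list had 1 call without S100b-cell replicate 2 or 3 and none without any 1 of the other libraries. The lymphocyte list had 1 call without S100b-cell replicate 2, and none without replicate 3 or any 1 MYC/Otx2 library. The part of immune cells in the other differences was not tested.

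**Figure D5:**
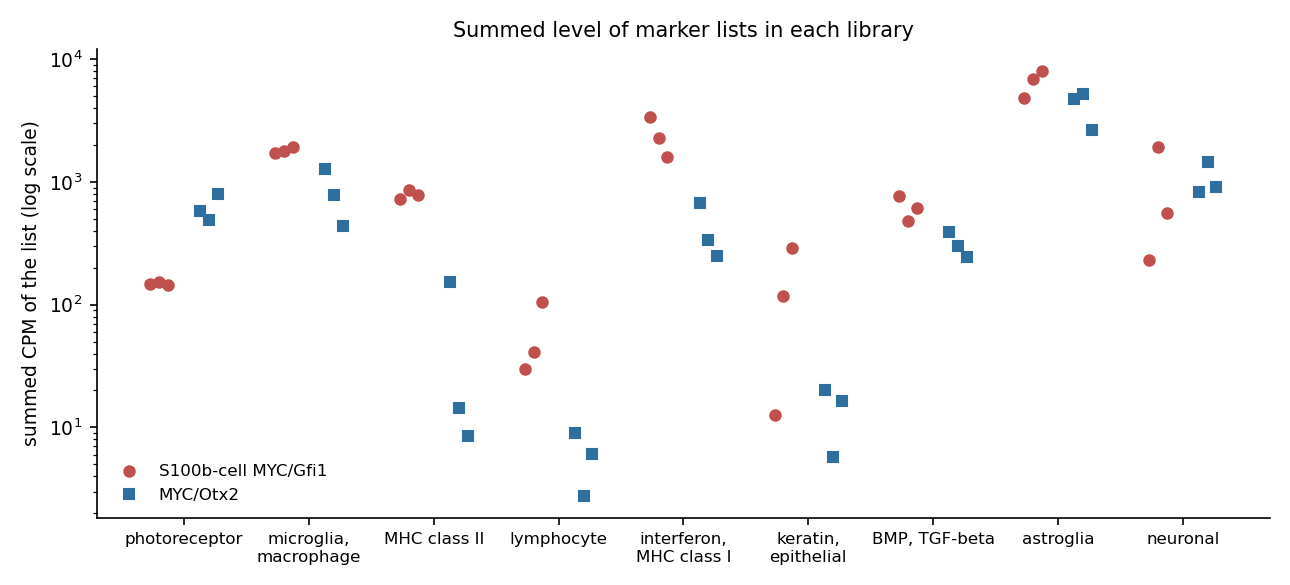
Summed CPM of 9 marker lists in each library, on a log axis, with S100b-cell tumours as red circles left of MYC/Otx2 tumours as blue squares. The MHC class II, lymphocyte, interferon, microglia and BMP sums lie higher in all 3 S100b-cell libraries, the photoreceptor sum lies lower, and the astroglia, neuronal and keratin sums overlap.

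Keratin and epithelial genes rose in some S100b-cell libraries. Of 13 tested 4 rose, against 10% of all genes called higher, with a median of 4.87. In at least 1 of the groups, 5 of the 13 had no count. Members with enough counts only through the S100b-cell libraries had to differ. The sums were 12.7, 117 and 288 CPM in S100b-cell tumours and 20.1, 5.73 and 16.5 CPM in MYC/Otx2 tumours. Replicate 1 thus lay within the range of the other group. Cldn3, a tight junction claudin, was at 5.89, 4.43 and 19.9 CPM in S100b-cell tumours and 0, 0.125 and 0 CPM in MYC/Otx2 tumours, 228-fold higher with a counting interval of 40.7 to 9032 (adjusted p = 0.0065 by edgeR), and was the only call of the list that held. The number of calls was 6 without S100b-cell replicate 1, 2 without replicate 2 and 1 without any 1 of the others.

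Astroglial and neuronal genes showed few calls. Of 36 tested astroglial genes 2 rose and 1 fell, against 10% and 7.89% of all genes tested, and the median was 0.40. The fall, of the glutamate transporter gene Slc1a2, was lost without any library but S100b-cell replicate 1. Mt1, a metallothionein of astrocytes that metals and stress also induce, was at 1390, 1510 and 1400 CPM in S100b-cell tumours and 162, 232 and 83.8 CPM in MYC/Otx2 tumours (3.17 ± 0.44, adjusted p = 0.00235 by edgeR). Mt2 was at 581, 1030 and 760 CPM in S100b-cell tumours and 54.2, 114 and 45.4 CPM in MYC/Otx2 tumours, and both calls held. The fixed astroglial markers overlapped between the groups or did not pass. Gfap, the astrocyte filament, was at 1.04, 23.9 and 36.5 CPM in S100b-cell tumours and 12.0, 12.5 and 3.24 CPM in MYC/Otx2 tumours, and Aqp4, the astrocyte water channel, at 0.0647, 21.7 and 54.0 CPM in S100b-cell tumours and 13.3, 20.4 and 7.28 CPM in MYC/Otx2 tumours. S100b, Gfap and Aqp4 were all lowest in S100b-cell replicate 1. None of 40 tested neuronal genes was called, against 17.9% of all genes tested, and the median was 0.02. DESeq2 called 1 higher and 1 lower, and edgeR's test gave 2 at an unadjusted p under 0.05. Without S100b-cell replicate 2, 4 were called lower and the median was -1.81, and without replicate 1, 1 was called higher. Their sum was 231, 1940 and 563 CPM in S100b-cell tumours and 829, 1440 and 912 CPM in MYC/Otx2 tumours, with replicate 2 highest in both groups. Of 11 tested genes of mature granule cells 1 fell and none rose, against 7.89% and 10% of all genes tested, with a median of -1.02. The gene that fell, Cadps2, was at 0.0647, 3.11 and 1.56 CPM in S100b-cell tumours and 29.5, 35.2 and 26 CPM in MYC/Otx2 tumours. Its call did not hold. Cbln3 of the same list was at 0.0647, 13.7 and 16.1 CPM in S100b-cell tumours and 47.7, 143 and 5.2 CPM in MYC/Otx2 tumours, and did not pass. Zic1, a factor of granule cells and their progenitors, was at 2.52, 123 and 39.1 CPM in S100b-cell tumours and 126, 229 and 32.5 CPM in MYC/Otx2 tumours, and did not pass.

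Matrix genes were mixed, while adhesion genes rose or did not pass. Of 20 tested fibroblast and matrix genes 4 rose and 2 fell, against 10% and 7.89% of all genes tested. Of 15 tested genes of adhesion and epithelial-mesenchymal transition 4 rose and none fell, with a median of 1.07. Among these 4 only the call of Cd44 held. Igfbp2, which binds insulin-like growth factors, was at 1.94, 13.6 and 17.3 CPM in S100b-cell tumours and 595, 490 and 722 CPM in MYC/Otx2 tumours (-5.79 ± 0.97, adjusted p = 0.00554 by edgeR). Postn, a matrix protein, was at 1.10, 0.622 and 2.27 CPM in S100b-cell tumours and 20.5, 10.3 and 43.0 CPM in MYC/Otx2 tumours. Both lay lower in every S100b-cell library than in any MYC/Otx2 library. Twist2, a mesenchymal helix-loop-helix factor, was at 4.72, 48.6 and 27.6 CPM in S100b-cell tumours and 0, 0 and 0.693 CPM in MYC/Otx2 tumours. Cd44, a hyaluronan receptor, was at 79.9, 77.5 and 48.4 CPM in S100b-cell tumours and 9.61, 5.36 and 9.48 CPM in MYC/Otx2 tumours, and these 4 calls held. The fibroblast list had 1 to 3 rises without any 1 library. Cxcl14, a chemokine, fell, with 3.88, 7.68 and 7.90 CPM in S100b-cell tumours and 102, 175 and 101 CPM in MYC/Otx2 tumours (-4.28 ± 0.49, adjusted p = 0.00129 by edgeR), and held too.

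All 9 tested genes of the mitochondrial genome rose, against 10% of all genes called higher, with a median of 1.57. mt-Nd2, a subunit of respiratory complex I, was at 15500, 19800 and 13100 CPM in S100b-cell tumours and 2670, 2240 and 2650 CPM in MYC/Otx2 tumours (2.68 ± 0.24, adjusted p = 0.000532 by edgeR). The nuclear genes of the respiratory chain showed 6 rises and no fall among 32 tested, against 10% of all genes called higher. Their median was 0.48. Cox5b, of complex IV, was at 173, 235 and 147 CPM in S100b-cell tumours and 28.4, 40.5 and 62.9 CPM in MYC/Otx2 tumours. Cox5b was the only one whose call held. The nuclear list's count was 5, 1 and 4 without S100b-cell replicates 1, 2 and 3 and 3, 1 and 2 without MYC/Otx2 replicates 1, 2 and 3. Of 46 tested ribosomal protein genes 6 rose and none fell, near the 10% of all genes called higher, with a median of 0.16 beside 0.17 over all genes. Rps14 was at 3280, 4030 and 4930 CPM in S100b-cell tumours and 798, 550 and 616 CPM in MYC/Otx2 tumours, with the same doubt on shared reads as for Rpl26. The ribosomal count was 3 without MYC/Otx2 replicate 1 or 2. Malat1, a long RNA kept in the nucleus, was at 1700, 1080 and 1500 CPM in S100b-cell tumours and 166, 329 and 164 CPM in MYC/Otx2 tumours (2.70 ± 0.60, adjusted p = 0.0163 by edgeR). Its call was lost without MYC/Otx2 replicate 1 or 3 (adjusted p up to 0.0651). The part of mitochondrial and nuclear RNA shares in the other differences was not tested.

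Some genes differed most among libraries of one group. In S100b-cell tumours, Bmp8a, a BMP family ligand, was at 0, 139 and 30.7 CPM and Atp6v1b1, a proton pump subunit, at 0, 128 and 39.1 CPM, while Chodl, a membrane lectin, was at 114, 0.0692 and 0.626 CPM. In each of these replicate 1 stood opposite to replicates 2 and 3. In MYC/Otx2 tumours, Dct, a melanin enzyme, was at 0.424, 10.6 and 59.3 CPM, and Il23a, a cytokine subunit, at 0, 5.98 and 32.9 CPM.

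The 2 constitutive MYC/Gfi1 libraries, which share the partner gene with the S100b-cell tumours and the constitutive expression with the MYC/Otx2 tumours, were read for the leading genes as levels only. Crx and Vsx1 had no count in either, Sag was at 1.52 and 0.581 CPM, and Rxrg at 1.40 and 0.581 CPM. Other members of the retinal lists were well above 0 there, with Unc119 at 6.88 and 34.7 CPM and Neurod1 at 83 and 482 CPM. Myc was at 27.5 and 11 CPM, above the S100b-cell libraries and below the MYC/Otx2 libraries. Rpl26 was at 9.09 and 11.6 CPM, close to its level in MYC/Otx2 tumours, and Bmp4 was at 18.4 and 2.61 CPM. These genes were chosen after their values were seen, and no test was made. The 2 constitutive MYC/Gfi1 libraries held 7533317 and 6526486 counts, with 6 and 5.96% from the mitochondrial genome. These values, and the style of the column names, were close to those of the MYC/Otx2 libraries. Between these groups constitutive expression, depth, mitochondrial share and column style thus go together and cannot be told apart. mt-Nd2 was at 2490 and 3230 CPM there, near its level in MYC/Otx2 tumours.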

How the data were processed

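The values were deposited as raw counts, 1 column a library and 1 line a gene, with no normalization by the authors. Per the labels' protocols, TRIzol RNA from frozen tumours was made into QuantSeq 3′ forward libraries with molecular identifiers. Per the submitters' processing notes, the tools were STAR 2.4.1d and HTSeq 0.6.1 with build mm10. Not given in the sources used here: whether identifiers were collapsed, the strand setting and the annotation.

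Of 38406 genes, 15228 passed edgeR's filterByExpr by group and were tested with edgeR 4.0.16 in R 4.3.3 (TMM, robust quasi-likelihood fit of all 11 libraries, two-sided contrast). P-values were adjusted over all genes of the fit (Benjamini-Hochberg). SE is the log2 fold change over the square root of F. Floors of 3 counts and 95% exact intervals cover counting error only. The code was tested on simulated data. It called 1 of 50 changes of 2-fold, 11 of 50 of 4-fold, 24 of 50 of 8-fold and 34 of 50 of 16-fold. It also called 5 unchanged genes. A gene that did not pass may therefore still differ between the groups. Alternatives were other scalings, filters, tools, sample sets and depth. Gene positions are from GENCODE on GRCm38.

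The groups, the gene lists and the rule for named genes were chosen with earlier results of these data known. The rule took genes of the labels, and the 12 largest rises, the 12 largest falls and the 8 smallest p among called genes. These called genes had 10 CPM or more in the higher group and no overlap, and gene models named only by number were left out. Added to these were the 4 widest ranges within a group, and up to 4 called and 2 other members a list. Any member of retinal, partner and cell type lists could be named too. Some members of the lists are not reported here.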

Additional observations from a re-analysis of the deposited data

How the results depend on the processing

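Another tool or sample set moved the counts most. DESeq2 called 4327 genes, 2397 higher and 1930 lower in S100b-cell tumours, and a fit of the 6 libraries alone called 4622 of 13619, 2405 higher and 2217 lower. These share 2708 and 2568 calls with the 2727 reported, and the cause was not tested. Calls numbered 2741 with relative log expression factors, 2753 with upper-quartile factors, 2202 with no filter beyond 1 count, 2636 at 10 CPM or more and 3682 with limma-voom. Leaving out 1 of the 6 libraries gave 1192 to 1750 calls, 590 to 948 of them higher and 511 to 802 lower, with fewer samples in the fit. An alternative chosen after seeing the data, without constitutive MYC/Gfi1 replicate 2, gave 3482, with 1905 higher and 1577 lower.

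Replicate numbers came from the titles. Deviations of same-numbered libraries correlated at 0.0366, 0.152 and -0.0466, so the numbers were not taken as pairs. With a replicate block the calls were 1904, with 1040 higher and 864 lower.

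Of 113 named genes called, 67 kept direction and call in every alternative, with Cadps2, Mdm2 and Ccng1 not followed here. The log2 fold changes of 3 genes that did not pass turned sign. S100b reached 0.33 without S100b-cell replicate 1 and 0.95 without MYC/Otx2 replicate 2, in a range of -1.28 to 0.95 over the libraries left out. Cx3cr1 ran between -0.29, without S100b-cell replicate 3, and 0.87. Aqp4 was at -1.56 with limma-voom, and between -0.33, without S100b-cell replicate 3, and 1.43. At these depths 0 counts over a group allows a level up to that of 3 counts.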
